A study of Homo sapiens with 2 samples.

Results

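The genes described here build and steer the lamellipodium, the flat actin-filled protrusion with which an adherent cell advances. They were chosen as a list of 32 gene symbols of the Rac, WAVE and Arp2/3 pathway and its partners, and all 32 were found among the 36601 genes of the count files. The list holds 8 Arp2/3 subunits, 8 WAVE complex genes with the related activator WASL, 3 GTPases and 2 PAK kinases. An exchange factor group of 6 holds DOCK1, DOCK3, TIAM1 and VAV2 with the adaptors ELMO1 and ELMO2. The others are cortactin (CTTN), the bundling protein fascin (FSCN1) and the elongation factors ENAH and EVL.

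In this pathway, exchange factors load the small GTPases Rac and Cdc42 with GTP. Active Rac binds the WAVE complex and active Cdc42 binds N-WASP, and both then switch on the Arp2/3 complex, which starts new actin branches on the sides of existing filaments. Integrins that hold the matrix are among the best known upstream inputs to Rac, and elongated mesenchymal invasion is classically tied to Rac.

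Single-cell RNA was measured in HT1080, an established human fibrosarcoma line labelled as wildtype, after 72 h in which spheroids, many to a gel, invaded collagen. The 4B4 culture received 2 µg/ml of 4B4, an antibody known to block β1 integrin, and the control culture has no antibody named in its label, so what the block did and what any antibody would do cannot be told apart. Each group was 1 library, which confounds the library with the treatment, so no test was possible and differences are given by size. After a filter on barcodes, 1385 cells with 116451080 unique molecular identifiers (UMIs) remained in the 4B4 library and 3402 cells with 127218114 UMIs in the control library. A cell held a median of 68556 UMIs in the 4B4 library and 32914 in the control library, and mitochondrial genes took a median of 7.63% and 9.16% of them. The libraries shared 2 barcodes.

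Levels are UMIs summed over a library's cells per 1000000 UMIs of that library (UPM). Brackets give exact 95% intervals, which cover counting error only. Each molecule is tagged near its 3′ end, so UPM is not divided by transcript length, and gene-specific capture limits any ranking between genes. Of the marker genes fixed for HT1080, VIM (1392 UPM in the 4B4 library, 1830 in the control library), SPARC, CD44, CDH2 and COL5A1 were present, and THY1 was nearly absent (8 and 29 UMIs). All 7 immune markers stayed below 5 UPM. Of 5 epithelial markers CLDN4 alone reached that level (13.8 UPM in the 4B4 library, 11.2 in the control library), and KRT5 had no UMI. Single markers of other cell types were present: endothelial PECAM1 at 45.8 UPM in the 4B4 library and 30.3 UPM in the control library, with CDH5 below 1 UPM, and muscle DES at 11.8 and 7.67 UPM. The neuronal markers TUBB3 (199 UPM in the 4B4 library, 191 in the control library), MAP2 (37.0 and 24.8) and SNAP25 (5.08 and 4.50) all reached 5 UPM in at least the 4B4 library.

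Transcripts of the branching machinery were at similar levels in both libraries. Genes that reached 5 UPM in the 4B4 or the control library are called measured here, and 31 of the 32 members were; ELMO2, an adaptor of DOCK exchange factors, was below, at 4.11 UPM in the 4B4 library and 3.80 UPM in the control library. None of the 31 differed by 1.5-fold with its counting interval on the same side, while 7.91% of all 11359 measured genes did. Log2 ratios, 4B4 over control, had a median of 0.0093 for the members and -0.0089 for all measured genes, and the median size of the ratio was 0.12 against 0.16. At the smaller size of 0.32 on the log2 scale, 4 members passed, where 22.3% of all measured genes did. CTTN and ARPC1B were higher in the 4B4 library (8.94% of all measured genes were) and TIAM1 and VAV2 lower (13.3%). Summed over the 32 genes, the level was 4418 UPM (4406 to 4430) in the 4B4 library and 4198 UPM (4186 to 4209) in the control library.

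**Figure D1:**
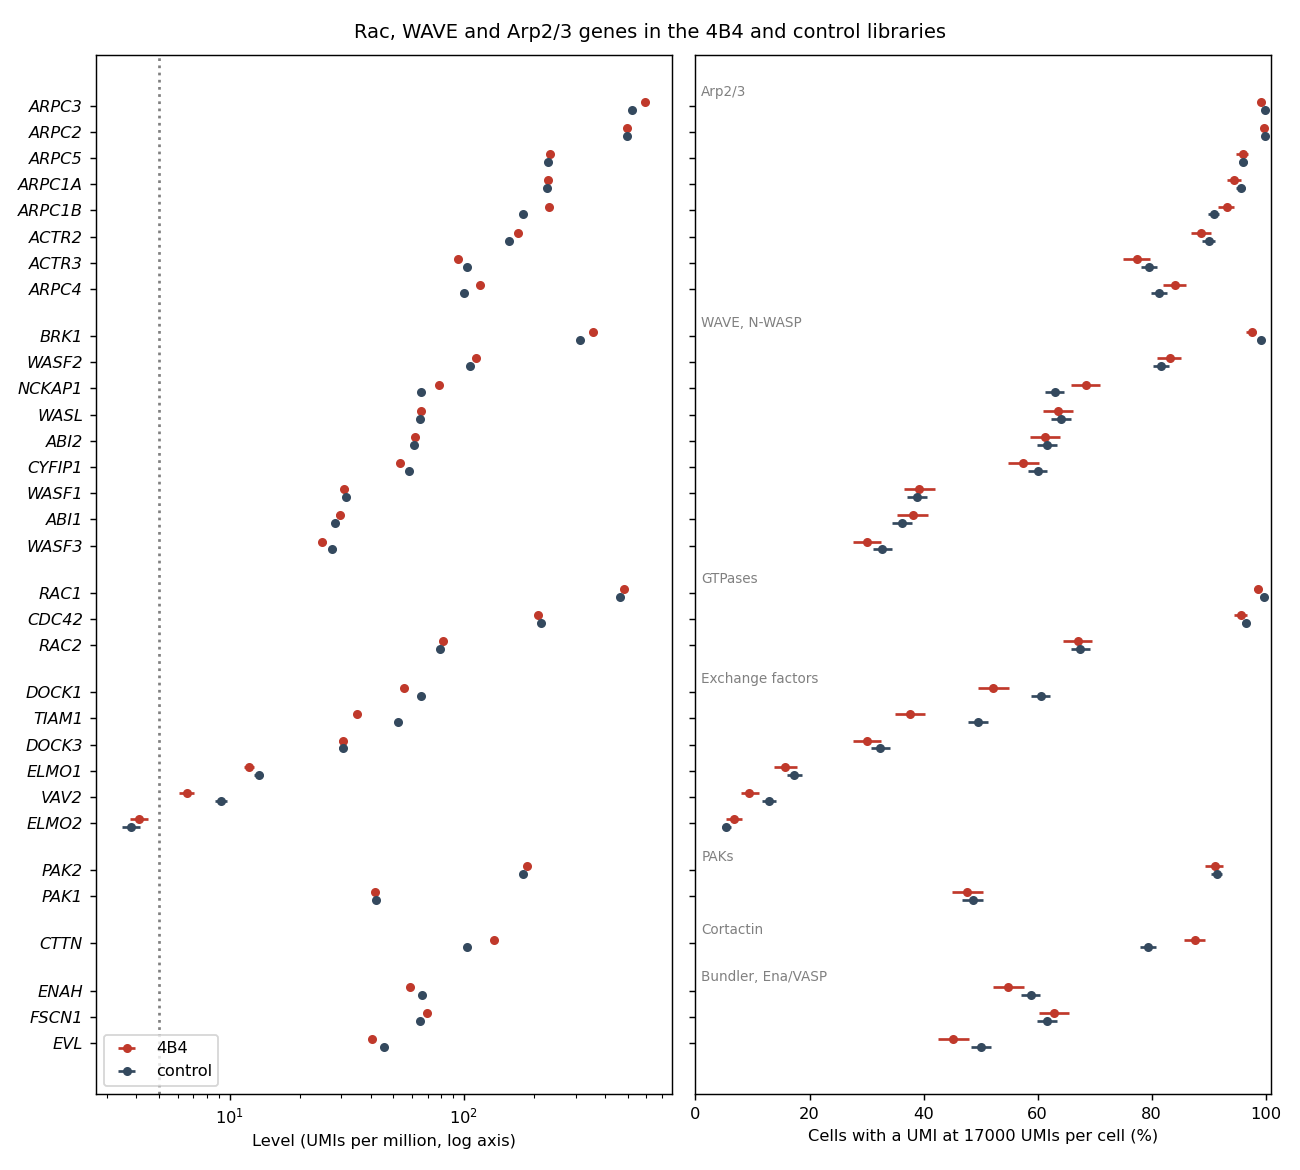
Level of each of the 32 genes in UPM on a log axis (left) and share of cells with a UMI after thinning every cell to 17000 UMIs (right), with 95% counting intervals; the dotted line marks 5 UPM. The 4B4 (red) and control (dark) points lie close together for most genes, with wider gaps at TIAM1, VAV2, CTTN and ARPC1B.

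The Arp2/3 complex binds the side of a filament and starts a daughter filament from its own actin-related proteins ACTR2 and ACTR3. Of its 8 subunits 7 had a ratio above 0, where 5469 of all 11359 measured genes did, and the median log2 ratio was 0.078. The intervals of ARPC1A and ARPC2 spanned 0. The ratios of ARPC1A, ARPC2, ARPC5 and ACTR3 changed sign in other processing settings. The summed level was 2162 UPM (2153 to 2170) in the 4B4 library and 2011 UPM (2003 to 2018) in the control library. ARPC2, a core subunit that contacts the mother filament, was at 498 UPM in the 4B4 library and 496 UPM in the control library. ARPC3, a peripheral subunit, was at 590 UPM (586 to 595) in the 4B4 library and 522 UPM (518 to 526) in the control library. ARPC4, the partner of ARPC2, was at 117 UPM in the 4B4 library and 99.99 UPM in the control library. ARPC5 was at 232 and 228 UPM in the 4B4 and control libraries. ACTR2 was slightly higher, at 170 UPM in the 4B4 library against 156 UPM in the control library, and ACTR3 slightly lower, at 94.3 against 103 UPM.

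The 2 forms of the ARPC1 subunit, which give Arp2/3 complexes of different activity, had different ratios. ARPC1B was at 231 UPM (228 to 234) in the 4B4 library and 179 UPM (177 to 181) in the control library, a log2 ratio of 0.37 (0.34 to 0.39). ARPC1A was at 229 UPM in the 4B4 library and 227 UPM in the control library, a log2 ratio of 0.0093 (-0.015 to 0.033). ARPC1B therefore made up 50.2% (49.8% to 50.7%) of ARPC1 UMIs in the 4B4 library and 44.1% (43.6% to 44.5%) in the control library. The ratio of ARPC1B stayed above 0 in all 14 other settings tried, from 0.15 to 0.48, whereas that of ARPC1A changed sign among them. The 2 forms of the ARPC5 subunit had closer proportions, with ARPC5 at 61.2% of ARPC5 and ARPC5L UMIs in the 4B4 library and 60.1% in the control library.

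The WAVE complex carries the Rac signal to Arp2/3. Its 8 genes had a median log2 ratio of 0.038, between -0.14 for WASF3 and 0.25 for NCKAP1. NCKAP1, which pairs with CYFIP1 in the part of the complex that receives Rac, was at 78.3 UPM (76.7 to 79.9) in the 4B4 library and 65.7 UPM (64.3 to 67.1) in the control library. CYFIP1, which binds Rac directly, was at 53.4 UPM in the 4B4 library and 58.1 UPM in the control library. BRK1, the smallest subunit, was at 354 UPM (351 to 358) in the 4B4 library and 313 UPM (310 to 316) in the control library. The scaffolds ABI1 (29.5 and 28.2 UPM) and ABI2 (61.7 and 61.4 UPM) had close levels in the 4B4 and control libraries.

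The WAVE proteins, which carry the Arp2/3-activating end, are encoded by WASF1, WASF2 and WASF3. WASF2 was at 112 UPM in the 4B4 library and 106 UPM in the control library and held 66.8% and 64.4% of the WASF UMIs. WASF1 was at 30.9 UPM in the 4B4 library and 31.3 UPM in the control library, and WASF3 at 24.9 and 27.5 UPM. WASL, which encodes N-WASP, the activator downstream of Cdc42, was at 65.7 UPM in the 4B4 library and 65.0 UPM in the control library, an interval of the log2 ratio from -0.030 to 0.060.

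Close relatives of the WAVE genes were among the further pathway genes. CYFIP2 was at 17.6 UPM (16.8 to 18.3) in the 4B4 library and 28.0 UPM (27.11 to 28.96) in the control library, a log2 ratio of -0.67, so CYFIP1 held 75.3% (74.3% to 76.2%) of the pair's UMIs in the 4B4 library and 67.5% (66.6% to 68.4%) in the control library. NCKAP1L, the form of blood cells, had 9 UMIs in the 4B4 library and 14 in the control library, against 9117 and 8359 for NCKAP1. ABI3 was low, at 4.28 UPM in the 4B4 library and 6.12 UPM in the control library.

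**Figure D2:**
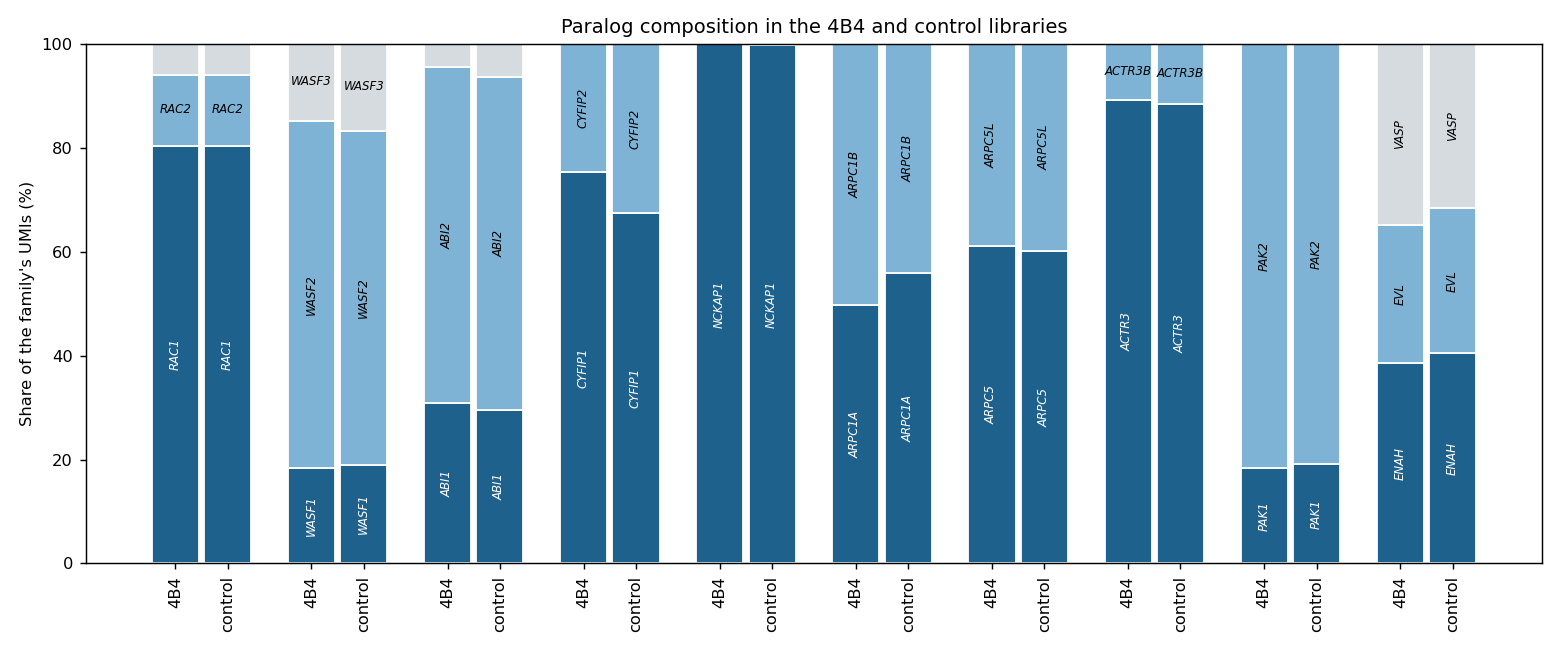
Share of each paralog in the UMIs of its family (%), with the 4B4 bar left of the control bar in each pair; the unlabelled top segments are RAC3 in the RAC bars and ABI3 in the ABI bars, and NCKAP1L is too small to see. The RAC bars are alike in both libraries, while CYFIP1 (75.3% and 67.5%) and ARPC1B (50.2% and 44.1%) hold larger shares in the 4B4 bar.

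The GTPases had log2 ratios between -0.032 and 0.052. RAC1, the Rac of most tissues, was at 481 UPM (477 to 485) in the 4B4 library and 464 UPM (460 to 468) in the control library. CDC42, known for filopodia and polarity, was at 208 UPM in the 4B4 library and 212 UPM in the control library. RAC2, best known from blood cells, was present in this sarcoma line at 81.5 UPM (79.8 to 83.1) in the 4B4 library and 78.8 UPM (77.3 to 80.4) in the control library. At equal depth of 17000 UMIs, 67.0% of 4B4 cells (64.4% to 69.6%) and 67.5% of control cells (65.8% to 69.1%) held a RAC2 UMI, and without thinning 89.96% and 83.0% did. No cell type without RAC2 was present to give a background for that share. RAC1, RAC2 and RAC3 made up 80.5%, 13.6% and 5.93% of RAC UMIs in the 4B4 library and 80.4%, 13.7% and 5.91% in the control library, equal within their intervals.

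The exchange factor group, with its ELMO adaptors, had the lowest median log2 ratio of the groups with several members, -0.24. Of its 5 measured members 4 were below 0, the adaptor ELMO1 among them, where 5890 of all 11359 measured genes were. TIAM1, a Rac exchange factor known from cell adhesion and invasion, was at 35.1 UPM (34.0 to 36.2) in the 4B4 library and 52.5 UPM (51.2 to 53.8) in the control library, a log2 ratio of -0.58 (-0.64 to -0.52). That is just short of 1.5-fold. At equal depth, 37.6% of 4B4 cells (35.0% to 40.3%) and 49.6% of control cells (47.8% to 51.4%) held a TIAM1 UMI. VAV2, an exchange factor activated by tyrosine kinases, was at 6.57 UPM (6.11 to 7.05) in the 4B4 library and 9.22 UPM (8.70 to 9.76) in the control library, a log2 ratio of -0.49 (-0.62 to -0.36). The ratios of TIAM1 and VAV2 were below 0 in all 14 other settings, from -0.93 to -0.33 for TIAM1 and from -1.07 to -0.094 for VAV2.

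TIAM1 passed 1.5-fold in 7 of the 14 other settings. It did so over G1 cells (4.99% of all measured genes passed), over cells of 20000 to 60000 UMIs (8.09%), with totals that left out mitochondrial genes, with or without MALAT1 (8.29% each), under a stricter cell filter together with VAV2 (11.3%), over cells low in MALAT1 (20.3%), and without the 1% of cells that held most UMIs of each gene (8.30%). No member passed without a cell filter (7.58% of all measured genes), with thinned cells (7.24%), with each cell (7.81%) or each phase (4.60%) weighing the same, with cells matched on MALAT1 share (6.37%), with trimmed-mean (TMM) scaling (7.88%), or when genes from 1 UPM (11.0%) or from 20 UPM (6.22%) were counted as measured.

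DOCK1 (DOCK180), which acts with ELMO proteins downstream of integrins, was at 55.8 UPM (54.4 to 57.2) in the 4B4 library and 65.9 UPM (64.5 to 67.3) in the control library. DOCK3, best known from neurons, was at 30.4 UPM (29.4 to 31.4) in the 4B4 library and 30.3 UPM (29.4 to 31.3) in the control library. ELMO1 was low, at 12.1 UPM in the 4B4 library and 13.3 UPM in the control library. The ratios of DOCK1, DOCK3 and ELMO1 changed sign in other settings, most of all with the MALAT1 share of the cells, described further on. Of the 14 other settings, DOCK1 kept its sign in 13, ELMO1 in 11 and DOCK3 in 8. DOCK1 was above 0 only over MALAT1-high cells (0.085).

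CTTN encodes cortactin, which stabilises Arp2/3 branches and marks invadopodia, the protrusions that degrade matrix. It had the largest ratio upward, at 134 UPM (132 to 136) in the 4B4 library and 103 UPM (101.1 to 104.7) in the control library, a log2 ratio of 0.38 (0.35 to 0.42). Its ratio lay between 0.30 and 0.43 in the 14 other settings, below 1.5-fold in each. At equal depth, 87.6% of 4B4 cells (85.7% to 89.3%) and 79.4% of control cells (78.0% to 80.8%) held a CTTN UMI.

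FSCN1, which bundles filaments in filopodia and invadopodia, was at 69.9 UPM in the 4B4 library and 64.7 UPM in the control library. ENAH and EVL, which speed filament growth at the leading edge, were both slightly lower: ENAH was at 58.9 UPM in the 4B4 library and 66.3 UPM in the control library, and EVL at 40.7 and 45.8 UPM. The Rac and Cdc42 effector kinases had close levels, with PAK2 at 185 UPM in the 4B4 library and 179 UPM in the control library and PAK1 at 41.7 and 42.1 UPM.

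**Figure D3:**
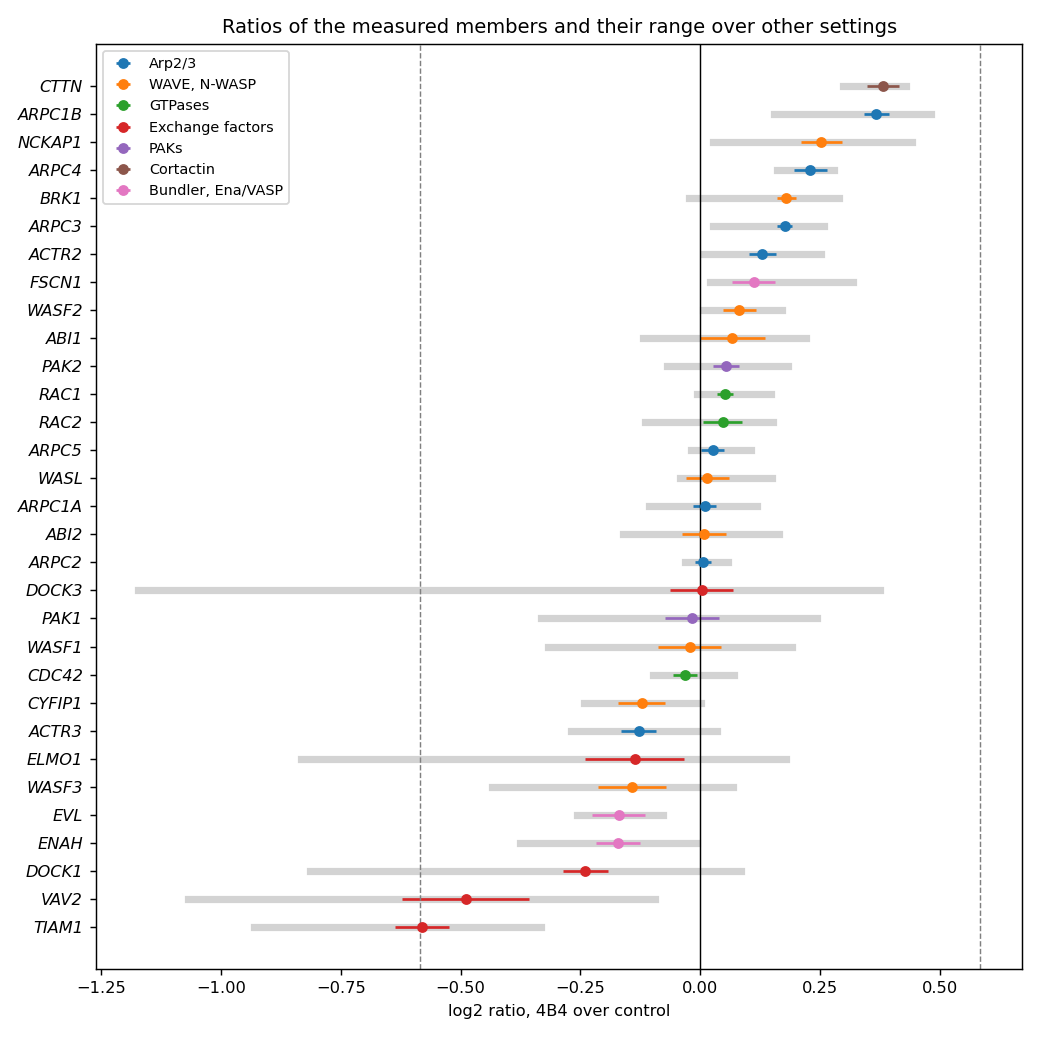
Log2 ratio of the 31 measured members, 4B4 over control, with 95% counting intervals (coloured) and the lowest to highest value over 14 other settings (grey bars); dashed lines mark 1.5-fold. No point passes 1.5-fold, and the widest grey bars belong to the exchange factor group, such as DOCK3 from -1.17 to 0.38.

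Counts per cell differed more than these relative levels, as did all RNA. RAC1 averaged 40.5 UMIs per cell in the 4B4 library and 17.4 in the control library, and ARPC3 averaged 49.6 and 19.5, beside the higher total of the 4B4 cells. More RNA per cell and deeper sequencing of fewer cells cannot be told apart in these counts.

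Of 105 further genes of the pathway, 85 were measured, none was at least 1.5-fold higher in the 4B4 library (2.10% of all measured genes were) and 4 were lower by that size (5.82%). These were DOCK2, an exchange factor of blood cells, at 6.22 UPM in the 4B4 library and 10.8 UPM in the control library, CYFIP2, CDC42EP3 and SRGAP1. CDC42EP3, an effector that binds active Cdc42, was at 45.3 UPM (44.1 to 46.6) in the 4B4 library and 77.7 UPM (76.2 to 79.2) in the control library. SRGAP1, which helps Rac and Cdc42 to hydrolyse GTP, was at 50.3 UPM (49.0 to 51.6) in the 4B4 library and 80.0 UPM (78.5 to 81.6) in the control library. CDC42EP3 stayed past 1.5-fold in all 13 other settings run for these genes and CYFIP2 in 12, but SRGAP1 in 9 and DOCK2 in 8, and DOCK2 had a log2 ratio of -0.041 over cells high in MALAT1.

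Short of 1.5-fold, the largest ratios upward belonged to WASHC1 (log2 ratio 0.44), PFN1 (0.43) and DOCK11 (0.37), whose values over the 13 other settings spanned 0.37 to 0.74, 0.15 to 0.52 and -0.00084 to 0.61 in that order. PFN1 encodes profilin, which feeds actin monomers to growing ends, and was at 1298 UPM (1292 to 1305) in the 4B4 library and 966 UPM (960 to 971) in the control library. WASHC1, an activator of Arp2/3 on endosomes, has near-identical copies in the genome, which makes its count uncertain. The Rac relative RHOG, which acts upstream of ELMO and DOCK proteins, was at 79.5 UPM in the 4B4 library and 65.9 UPM in the control library. ACTR3B was at 11.4 and 13.4 UPM in the 4B4 and control libraries, ARPC5L at 147 and 151 UPM, and ACTR3C and WAS were below 1 UPM in both.

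Few members differed by 1.5-fold between cell cycle phases, at shares near those of all measured genes. Phases called from S and G2M genes placed 5.72% of 1311 4B4 cells in S and 6.56% in G2M, against 13.0% and 20.2% of 3099 control cells. PAK1, a kinase also known from mitosis, was at 65.7 UPM in G2M cells and 38.1 UPM in G1 cells of the 4B4 library, and at 54.9 and 35.8 UPM in the control library. VAV2 was at 9.59 UPM in G2M cells and 5.86 UPM in G1 cells of the 4B4 library, and at 12.5 and 7.24 UPM in the control library. FSCN1 was at 89.1 UPM in G2M cells and 66.5 UPM in G1 cells of the 4B4 library, and at 82.0 and 53.3 UPM in the control library. ARPC3 went the other way, at 518 UPM in G2M cells and 601 UPM in G1 cells of the 4B4 library and at 458 and 550 UPM in the control library.

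By the 1.5-fold rule, G2M cells of the 4B4 library had 3 members higher than G1 cells (PAK1, VAV2 and TIAM1) and G2M cells of the control library had 3 (PAK1, VAV2 and FSCN1), with none lower. Among all measured genes 10.6% were higher and 2.83% lower in the 4B4 library, and 11.8% and 6.38% in the control library. S cells of the 4B4 library had 5 higher members (VAV2, TIAM1, PAK1, WASF3 and DOCK3, where 13.3% of all measured genes were) and S cells of the control library 2 (VAV2 and FSCN1, where 10.8% were), and none was lower (3.82% and 5.76%). Depth and MALAT1 differed between phases too. G2M cells held a median of 100302 UMIs and G1 cells 69795 in the 4B4 library, against 45482 and 31603 in the control library. MALAT1 was at 9169 UPM in G2M cells and 12832 UPM in G1 cells of the 4B4 library, and at 6397 and 15270.4 UPM in the control library, and its part in these ratios was not tested. Only 75 S and 86 G2M cells stood behind the 4B4 values. Over G1 cells alone the 4B4 over control log2 ratio was -0.59 for TIAM1, -0.31 for VAV2, 0.32 for FSCN1 and 0.36 for CTTN, so FSCN1 was further above 0 and VAV2 nearer to it than over all cells.

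**Figure D4:**
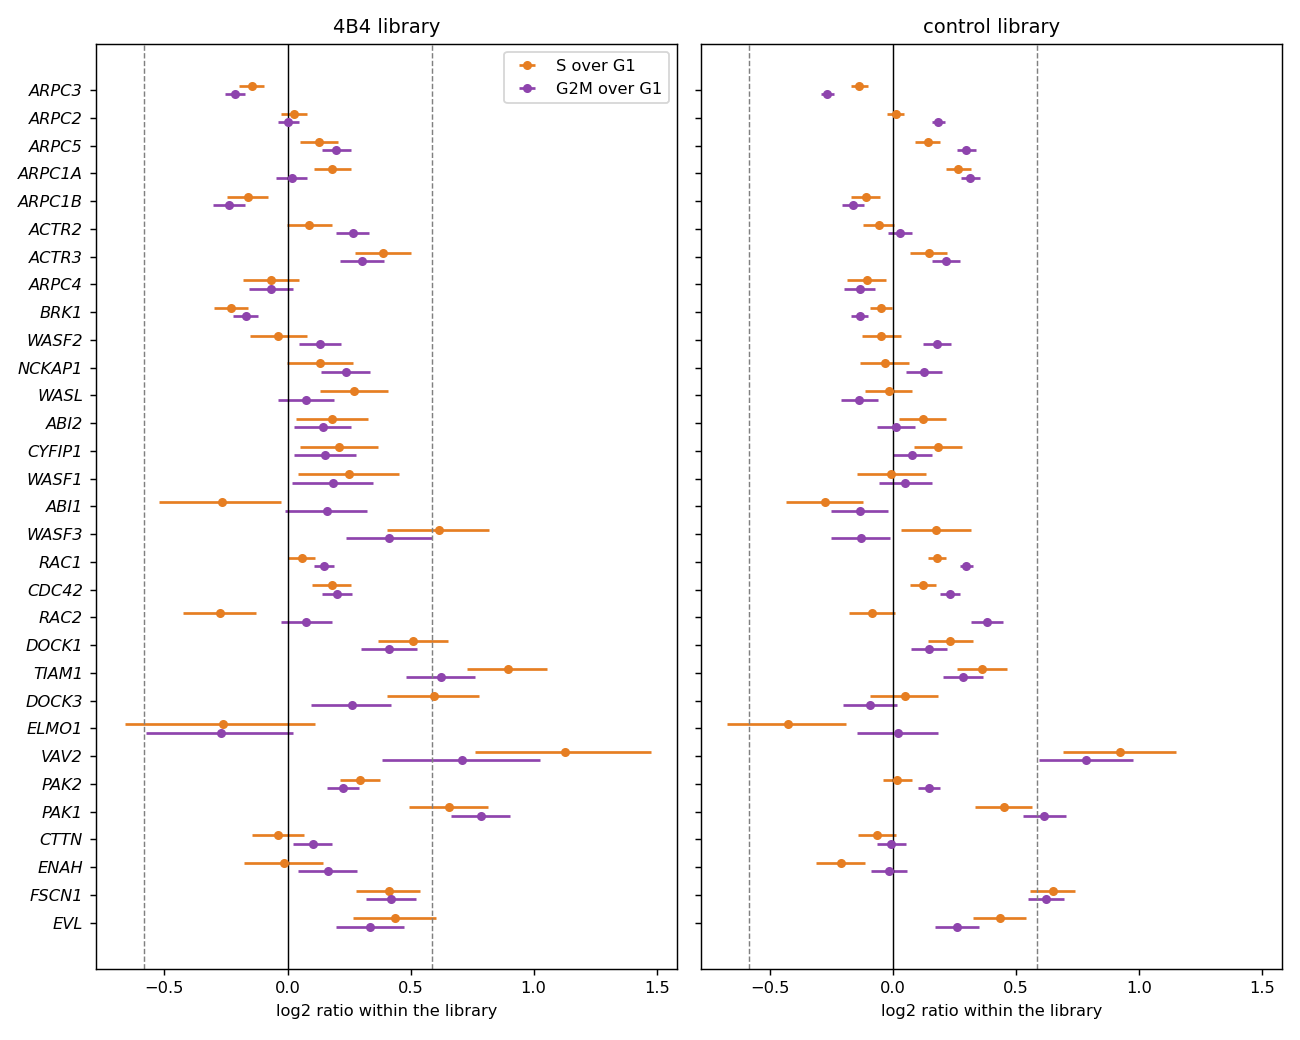
Log2 ratio of S over G1 cells (orange) and G2M over G1 cells (purple) for the 31 measured members in the 4B4 (left) and control (right) libraries, with 95% counting intervals; dashed lines mark 1.5-fold. VAV2 and PAK1 lie to the right in both libraries, while ARPC3, ARPC1B and BRK1 lie left of 0.

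The widest differences between cells of a library followed MALAT1, a long noncoding RNA that stays in the nucleus. MALAT1 took a median of 0.82% of a 4B4 cell's UMIs (quartiles 0.055% and 2.46%) and 0.80% of a control cell's (0.21% and 1.98%). Cells were split at the median share of their library into MALAT1-high cells (693 of the 4B4 and 1701 of the control library) and MALAT1-low cells (692 and 1701). DOCK3 was at 58.6 UPM in MALAT1-high and 7.44 UPM in MALAT1-low cells of the 4B4 library, and at 45.1 and 16.8 UPM in the control library. RAC1 went the other way, at 394 UPM in MALAT1-high and 552 UPM in MALAT1-low cells of the 4B4 library and at 395 and 528 UPM in the control library.

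In all, 17 members were at least 1.5-fold higher and 2 lower in MALAT1-high cells of the 4B4 library, where 43.6% and 7.63% of all measured genes were. In the control library 8 were higher and none lower, where 27.7% and 2.74% of all measured genes were. Most roles held genes on both sides of 0. All 5 measured genes of the exchange factor group were higher by that size in the 4B4 library and 4 of 5 in the control library. Their counts are too few to set against those shares. In the WAVE complex WASF3 had log2 ratios of 1.31 in the 4B4 library and 0.81 in the control library, and BRK1 -0.58 and -0.27. Among the Arp2/3 subunits, ACTR2 (0.71 in the 4B4 library, 0.46 in the control library) and ACTR3 (0.59 and 0.30) were above 0, and ARPC1A (-0.53 and -0.46), ARPC1B (-0.61 and -0.28) and ARPC3 (-0.50 and -0.27) below. RAC2 had -0.78 in the 4B4 library and -0.56 in the control library, and CTTN stayed near 0 (0.12 and 0.14).

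The ratios went with the genomic span of the gene. Members from 11.6 kb (BRK1) to 709 kb (DOCK3) had a rank correlation between span and ratio of 0.89 in the 4B4 library and 0.81 in the control library (n = 31 genes, which share the same cells and are not independent), and all measured genes with a known span had 0.73 and 0.68 (n = 11306). MALAT1-high cells also had fewer UMIs (median 66266 against 71633 in the 4B4 library, 31119 against 34843 in the control library) and more mitochondrial UMIs (8.03% against 7.11%, 9.57% against 8.50%). Whether reads within introns were counted is not given in the sources used here, and the part of nuclear RNA in these ratios was not tested.

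**Figure D5:**
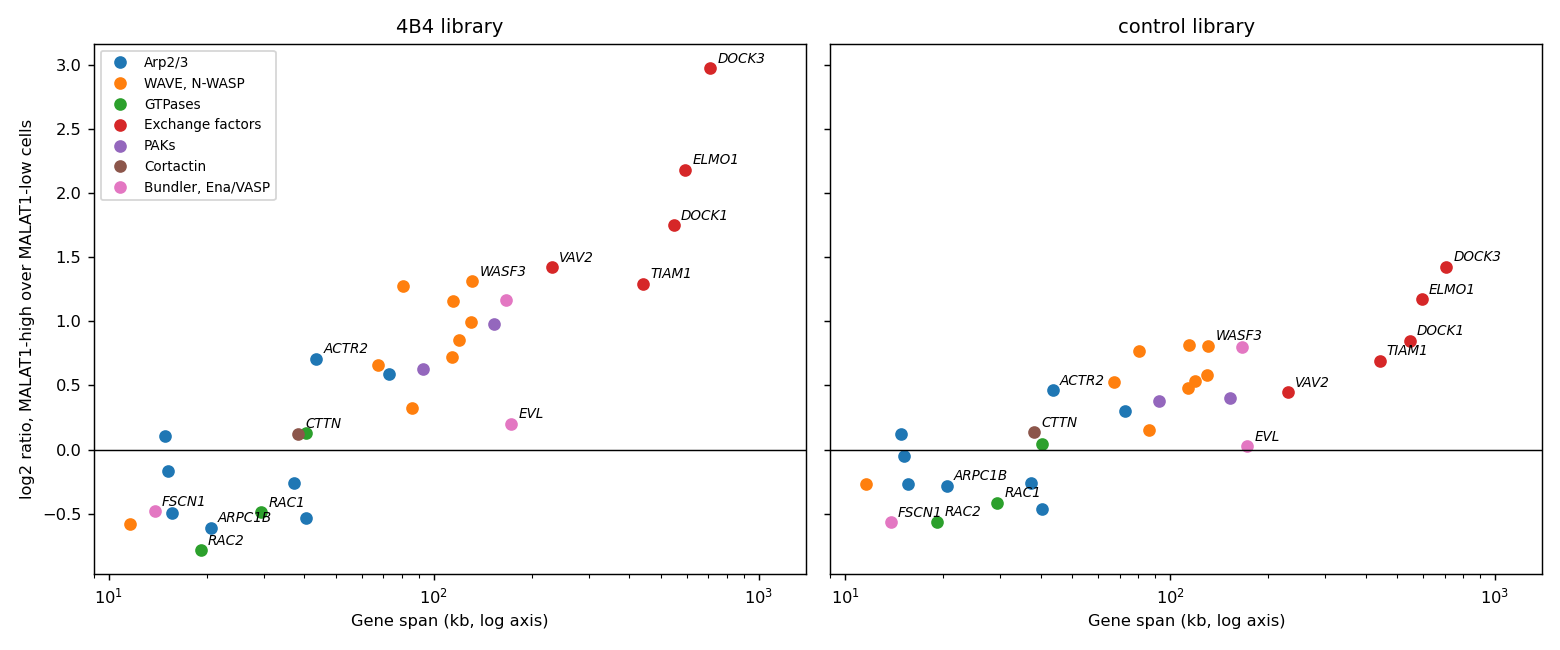
Log2 ratio of MALAT1-high over MALAT1-low cells against the genomic span of each measured member (kb, log axis) in the 4B4 (left) and control (right) libraries, coloured by role. Points climb from left to right in both libraries, from genes such as RAC2 below 0 to ELMO1, DOCK1 and DOCK3 at the top (DOCK3 at 2.98 in the 4B4 and 1.43 in the control library); EVL, a long gene near 0, and ARPC5, a short gene above 0, stand off this trend.

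The 4B4 over control ratios moved with the same split. Among MALAT1-low cells, 5 members were lower by 1.5-fold or more in 4B4 cells, DOCK3 (log2 ratio -1.17), VAV2 (-1.07), TIAM1 (-0.93), ELMO1 (-0.83) and DOCK1 (-0.81), where 20.3% of all measured genes passed in either direction. MALAT1-low cells of the 4B4 library held 1889 UPM of MALAT1 and those of the control library 2797 UPM, so the libraries were not alike in this class. Among MALAT1-high cells none of the 32 members measured there passed, and 5.44% of all measured genes did. With the cells of both libraries weighted to the same distribution of MALAT1 share, TIAM1 had -0.42, VAV2 -0.32, DOCK1 -0.087, ARPC1B 0.31 and CTTN 0.40. Over all cells, the members' 4B4 over control ratio had a rank correlation with gene span of -0.69 (n = 31) and all measured genes had -0.22 (n = 11306).

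Counts of most members varied between cells modestly beyond sampling. In G1 cells at equal depth the Fano factor, the variance over the mean, which is 1 for pure sampling, had a median of 1.40 in the 4B4 library and 1.30 in the control library over the 29 members of at least 20 UPM, against 1.27 and 1.21 over all 6781 such genes. From 100 UPM upward the order turned round, at 1.54 in the 4B4 library and 1.34 in the control library over 14 members, against 1.65 and 1.51 over 1598 genes. It was highest for DOCK3 in the 4B4 library (2.44) and for TIAM1 in the control library (1.79), and near 1 for ARPC4 (1.08 and 1.02). The 1% of cells with the most DOCK3 held 11.5% of its UMIs in the 4B4 library and 9.87% in the control library, against 4.36% and 4.25% for RAC1. The 28 pairs of Arp2/3 subunits had a median correlation across G1 cells of 0.13 in the 4B4 library and 0.038 in the control library, beside 0.053 and 0.015 for all pairs of genes of at least 100 UPM, too weak in sparse counts to be read as coordination. ACTR2 and ARPC3, which lie on opposite sides of the MALAT1 split, had the lowest pair in both libraries (-0.19 and -0.12).

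On GRCh38, with positions from GENCODE release 29, TIAM1 (ENSG00000156299) lies on chromosome 21 from 31118416 to 31559977, VAV2 (ENSG00000160293) on chromosome 9 from 133761894 to 133992604, CTTN (ENSG00000085733) on chromosome 11 from 70398404 to 70436584 and ARPC1B (ENSG00000130429) on chromosome 7 from 99374249 to 99394816. The files give a UMI its gene but not its place within the gene. On the other strand, ARPC1B overlaps PDAP1 (35399 UMIs in the 4B4 library, 38926 in the control library) and ARPC4 overlaps TADA3 (14136 and 13068). PDAP1 thus held more UMIs than ARPC1B (26891 and 22766). Also there, ABI1 overlaps PDSS1 (1608 and 2322), ABI2 overlaps RAPH1 (2961 and 4029) and CYFIP1 overlaps NIPA2 (4185 and 4570). CTTN overlaps AP000487.1 there (716 UMIs in the 4B4 library, 749 in the control library) and TIAM1 overlaps AP000251.1 (65 and 149 UMIs). Further members, such as DOCK1 with INSYN2, overlap genes on that strand too. The use of strand in counting is not given in the sources used here, so the counts of all these members are less certain. RAC1 has 9 annotated pseudogenes and CDC42 has 6, and reads shared with such copies may have been lost from their counts. CDC42 also overlaps CDC42-IT1 on its own strand.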

How the data were processed

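The values deposited are whole, unnormalized UMI counts for each gene and barcode, and the file headers name Cell Ranger 7.1.0. The submitters' processing notes name GRCh38 and Seurat 5.0.1, without a role for Seurat; the gene annotation is not given in the sources used here. Per the labels' protocols, collagenase and trypsin freed the cells, and 10x Genomics Chromium 3′ version 3 libraries were made. A barcode was kept from 1000 detected genes upward if mitochondrial UMIs were at most 20%. Sums carry exact Poisson intervals, and ratios and shares Clopper-Pearson intervals. The 32 members and all lists were chosen with earlier results of these data known. Named genes are all members, further pathway genes past 1.5-fold, the 3 largest ratios each way among those measured, and paralogs of members. Cells were thinned without replacement to 17000 UMIs, which left out 74 4B4 and 303 control cells as too shallow. Phases were called with scanpy 1.11.5 from 43 S and 54 G2M genes. Doublets were not called or removed. Cells of a single line give doublets of 1 cell type, but the cells of a doublet may differ in phase or MALAT1 share. The part of doublets in the values by phase, MALAT1 share and cell was not tested. TMM factors came from edgeR 4.0.16. The ratio and its rule were tested on simulated counts with counting error only, so that test covers no variation between cells or libraries. Gene spans came from GENCODE release 29, where 94.6% of gene IDs and all 32 members matched.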

Additional observations from a re-analysis of the deposited data

Results flagged for a closer look

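Barcodes left out by the filter were not used in the comparisons, and the members were found there too. The 374 left-out barcodes of the 4B4 library held 1971 UPM (1922 to 2021) of the 32 genes together, and the 240 of the control library 1744 UPM (1669 to 1822), so the 4B4 value was above the control value. Mitochondrial genes took 46.9% of the UMIs of these barcodes in the 4B4 library and 55.7% in the control library. Mitochondrial UMIs are part of the total, and their larger share lowers the control value more. The order of these values therefore need not hold among the other UMIs, over which levels were not calculated.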

How the results depend on the processing

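Alternatives were fixed with the lists, except the weighting to the same MALAT1 share, chosen after seeing the data. The count of members past 1.5-fold was 0 over all cells, where 7.91% of all measured genes passed. It was 2 (TIAM1 and VAV2) under the stricter filter (2000 genes or more, mitochondrial UMIs up to 10%), where 11.3% passed. TIAM1 alone passed over G1 cells (4.99%), over cells of 20000 to 60000 UMIs (8.09%) and without the 1% of cells holding most of each gene (8.30%). The same held with a total without mitochondrial genes, and with a total without these and MALAT1 (8.29% each). Over MALAT1-low cells 5 members passed, where 20.3% of all measured genes did. At a log2 ratio of 0.32 in place of 1.5-fold 4 members passed, where 22.3% of all measured genes did. The count stayed 0 without a cell filter, over MALAT1-high cells, with thinned cells and with cells or phases weighing the same. It also stayed 0 with matched MALAT1 share, with TMM scaling (factors 0.984 for the 4B4 and 1.02 for the control library) and at floors of 1 or 20 UPM. In these settings 4.60% (phases weighing the same) to 11.0% (floor of 1 UPM) of all measured genes passed. The members' median of 0.0093 was -0.020 under the stricter filter, 0.050 over G1 cells, 0.072 over cells of 20000 to 60000 UMIs, -0.070 over MALAT1-low and 0.086 over MALAT1-high cells, 0.046 with thinned cells, 0.076 with cells weighing the same, 0.062 with matched MALAT1 share, 0.056 with TMM, -0.029 without mitochondrial genes and -0.028 also without MALAT1. The median of all measured genes was -0.043 under the stricter filter, -0.12 over MALAT1-low cells, 0.074 over MALAT1-high cells and 0.028 with thinned cells. It was 0.0024 over G1 cells and 0.0041 over cells of 20000 to 60000 UMIs. It was 0.039 with TMM, -0.048 without mitochondrial genes and -0.048 also without MALAT1. Such settings change only the library totals, so the ratio of every gene shifts by the same amount. The cause of the other shifts was not tested. Of 31 measured members, 12 kept the sign of their ratio in all 14 settings (8 above and 4 below 0) and 19 changed it. The direction of those 19 is not firm. Size alone did not decide this: WASF2 (0.082) kept its sign in all 14, and DOCK1 (-0.24) in 13. The share of all measured genes that kept their sign was not counted. No paired analysis was possible because each group has 1 library, and no replicate could be left out.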
